A study of Oryza sativa with 6 samples.

Results

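Terpene synthases and the enzymes of the diterpenoid pathway were examined in leaf messenger RNA of rice (Oryza sativa) whose microRNA gene MIR171f had been raised or mutated. The members were the transcripts whose description in the deposited expression table names a terpene synthase, a terpenoid domain, a copalyl diphosphate or kaurene enzyme, or one of the rice diterpenoid phytoalexins. The rule found 13 transcripts of 12 genes, out of 7194 listed transcripts of 6535 genes. The authors' ontology table assigned terpene synthase activity to 9 of the 13. The other 4 are both ent-kaurene oxidase transcripts, Os01t0248701-00, and the second transcript of Os03g0347900, so the members are mostly, but not only, terpene synthases.

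The 6 libraries came from leaves of 4-week-old plants of 3 genotypes, with 2 libraries each. Germination for 3 days at 28 °C is recorded for all 6. Nontransgenic rice (WT) served as control. The overexpressors (OX) carried a MIR171f transgene described as whole-body, with line Ox_3 in library 1 and line Ox_5 in library 2. The knockouts (KO) were CRISPR-Cas9 mutants of MIR171f, labelled K/O_2 and K/O_2_1, so both may derive from 1 line. No stress treatment is stated in the labels. The promoter of the transgene is not given in the sources used here, and within WT and within KO it is not stated that each library came from its own plant, so the p-values reflect no more than the variation among these libraries, part of which may be technical. No MIR171 precursor is listed in the table, so the genotype labels could not be checked by the modified gene.

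Terpene synthases turn linear prenyl diphosphates into the ring skeletons of volatile and defensive terpenes: farnesyl diphosphate gives sesquiterpenes and geranylgeranyl diphosphate gives diterpenes. In rice, ent-copalyl diphosphate synthase and kaurene synthase start the route to gibberellins, the growth hormones, and ent-kaurene oxidase carries it on. Syn-copalyl diphosphate synthase and kaurene synthase-like enzymes instead feed diterpenoid phytoalexins such as the momilactones, which rice makes against fungi and other plants.

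Listed reads summed to between 7376228 and 9739821 per library, and all listed transcripts had been selected by the authors because at least 1 of their 3 comparisons showed a 2-fold or larger difference at an unadjusted p below 0.05. Levels below are CPM, estimated counts scaled to the authors' effective library totals, and differences are log2 fold changes with their standard errors (SE) from edgeR's quasi-likelihood test. A transcript is called where its adjusted p (Benjamini-Hochberg over the 27384 transcripts the authors tested) is below 0.05. Both comparisons with WT use the same WT libraries, so the test of the difference between OX and KO is their direct comparison. All 13 members passed the filter on low counts.

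The OX leaves had much higher levels of a few terpene synthases and a lower level of an ent-kaurene oxidase. In the KO leaves 3 members rose: 2 that also rose in OX, and the cyclase at the entry to gibberellin synthesis, which was called higher in KO than in OX as well. Together the 13 transcripts made up 119 and 115 CPM in the WT libraries, 1495 and 1445 CPM in the OX libraries, and 177 and 186 CPM in the KO libraries. Os08g0167800 supplied most of the OX sum. Without it, the other 12 transcripts summed to 108 and 103 CPM in WT, 406 and 405 in OX leaves, and 137 and 145 in KO.

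**Figure D1:**
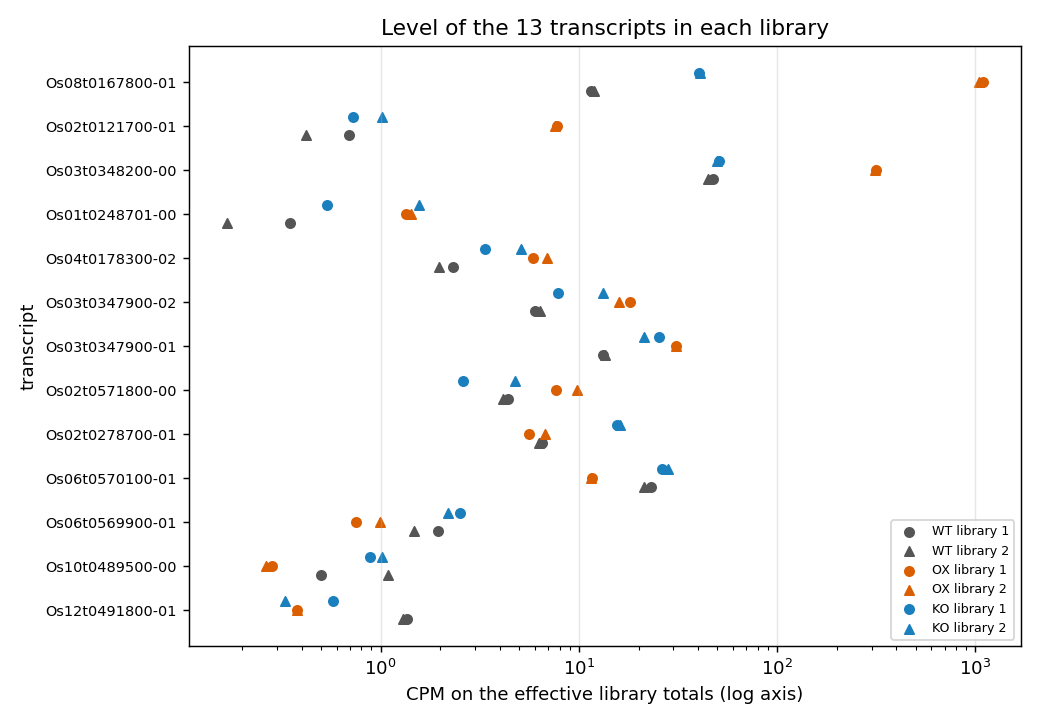
Level of each of the 13 transcripts in each library, as CPM on a log axis; colour marks the genotype and the symbol marks library 1 or 2. The OX points of Os08t0167800-01 sit at 1089 and 1041 CPM, far to the right of its WT points at 11.5 and 11.9.

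The sesquiterpene synthase-like gene Os08g0167800 (IRGSP-1.0, chromosome 8, 3961276 to 3965426) had the largest rise of the members. Its transcript stood at 11.5 and 11.9 CPM in the WT libraries, 1089 and 1041 in OX, then 40.4 and 40.7 in KO. The 3 genotypes did not overlap, with OX far above KO and KO above WT. Relative to WT it rose 90.8-fold in OX (6.50 as a log2 fold change, SE 0.06, adjusted p = 6.5e-06) and 3.46-fold in KO against WT (1.79, SE 0.05, adjusted p = 6.19e-05), so both genotypes moved the same way. OX was 26.2-fold above KO (4.71, SE 0.05, adjusted p = 1.92e-05). In all 3 comparisons the call held under each of 13 alternative settings, with adjusted p of at most 0.000451, 0.00222 and 0.00124.

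A terpene synthase-like gene on chromosome 3, Os03g0348200 (13063312 to 13070842), was the most abundant member in WT leaves. It had 47.6 and 44.9 CPM in WT, 315 and 312 in the OX lines, and 50.7 and 49.8 in KO. OX stood apart from the 4 other libraries, which lay close together. The transcript rose 6.78-fold in OX against WT (2.76, SE 0.06, adjusted p = 3.83e-05) and was 6.24-fold higher in OX than in KO (2.64, SE 0.05, adjusted p = 4.69e-05). In KO against WT the log2 fold change was 0.12 (SE 0.05, adjusted p = 0.404). That value depends on the scaling, since it was 0.31 and called with plain library totals (adjusted p = 0.0239), but -0.37 and -0.44 and called lower with DESeq2 size factors and with TMM (adjusted p = 0.0134 and 0.0158).

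Os03g0347900, described by a terpenoid synthase domain, lies 17.2 kb from Os03g0348200 and has 2 listed transcripts. Transcript 01 (13035374 to 13046115) stood at 13.3 and 13.5 CPM in WT leaves, 31.0 and 30.8 in OX, with 25.4 and 21.3 in KO. Transcript 02 (13038733 to 13046111), which the table describes by the alpha-alpha toroid domain of terpenoid cyclases and protein prenyltransferases, stood at 6.04 and 6.37 CPM in WT, 18.1 and 16 in OX leaves, and 7.82 and 13.3 in KO. Transcript 01 was lowest in WT and highest in OX without overlap, and the KO libraries of transcript 02 were far apart from each other. Transcript 01 rose in OX (1.20, SE 0.11, adjusted p = 0.00213) and in KO (0.80, SE 0.11, adjusted p = 0.0112). Transcript 02 rose in OX (1.46, SE 0.27, adjusted p = 0.0243) and had a log2 fold change of 0.77 in KO (SE 0.27, adjusted p = 0.228). Neither transcript was called between OX and KO (0.40, SE 0.11, adjusted p = 0.112 for transcript 01, and 0.69, SE 0.26, adjusted p = 0.276 for transcript 02).

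For transcript 01 of Os03g0347900 the OX call against WT held under all 13 alternatives, with adjusted p of at most 0.0186, while its other calls and those of transcript 02 moved. For transcript 01 in KO against WT the adjusted p was 0.0624 without WT 1, 0.0574 without WT 2, 0.0567 without KO 1, 0.262 with DESeq2 size factors and 0.507 with TMM, while its comparison of OX with KO was called higher with those last settings (0.0151 and 0.0128) with plain library totals (0.0354) and when adjusted over the deposited table only (0.0289). For transcript 02 in OX against WT it was 0.157 without WT 1, 0.141 without WT 2, 0.123 without OX 1 and 0.0881 without OX 2. Transcript 02 was called higher in KO against WT without KO 1 (0.0405) and in OX against KO without KO 2 (0.0497). The gene's 2 transcripts together came to 19.3 and 19.9 CPM in the WT libraries, 49.2 and 46.8 in OX, then 33.2 and 34.6 in KO. Transcript 01 held 68.7% and 68.0% of that in WT, 63.1% and 65.8% in the OX lines, and 76.5% and 61.5% in KO, so the KO libraries differed in how reads were split and hardly in their sum.

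A scarcer gene with a terpenoid synthase domain, Os02g0121700 (chromosome 2, 1145837 to 1151052), which the authors' pathway table places in monoterpenoid biosynthesis, was scarce outside OX. Its estimated counts were 18 and 10 in WT, 247 and 260 in the OX lines, and 19 and 28 in KO, or 0.697 and 0.419, 7.78 and 7.60, and 0.729 and 1.02 CPM. OX again stood apart from the 4 other libraries. The transcript rose 13.6-fold in OX against WT (3.77, SE 0.35, adjusted p = 0.0019) and was 8.73-fold higher in OX than in KO (3.13, SE 0.33, adjusted p = 0.0037); its value in KO relative to WT was 0.64 (SE 0.35, adjusted p = 0.662). Across the 13 alternatives its adjusted p reached at most 0.0152 for OX against WT and 0.033 for OX against KO.

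The terpene synthase 2-like gene Os10g0489500 (chromosome 10, 18572698 to 18575857) was close to the detection limit. Its counts were 13 and 26 in WT leaves, 9 and 9 in OX, with 23 and 28 in KO, and none of its comparisons was called. Log2 fold changes were -1.52 for OX against WT (SE 0.49, adjusted p = 0.16), 0.26 for KO against WT (SE 0.45, adjusted p = 1) and -1.79 for OX against KO (SE 0.49, adjusted p = 0.105). Both OX libraries lay below the other 4, and the comparisons of OX with WT and with KO were called lower when adjusted over the deposited table only (0.0412 and 0.0269).

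**Figure D2:**
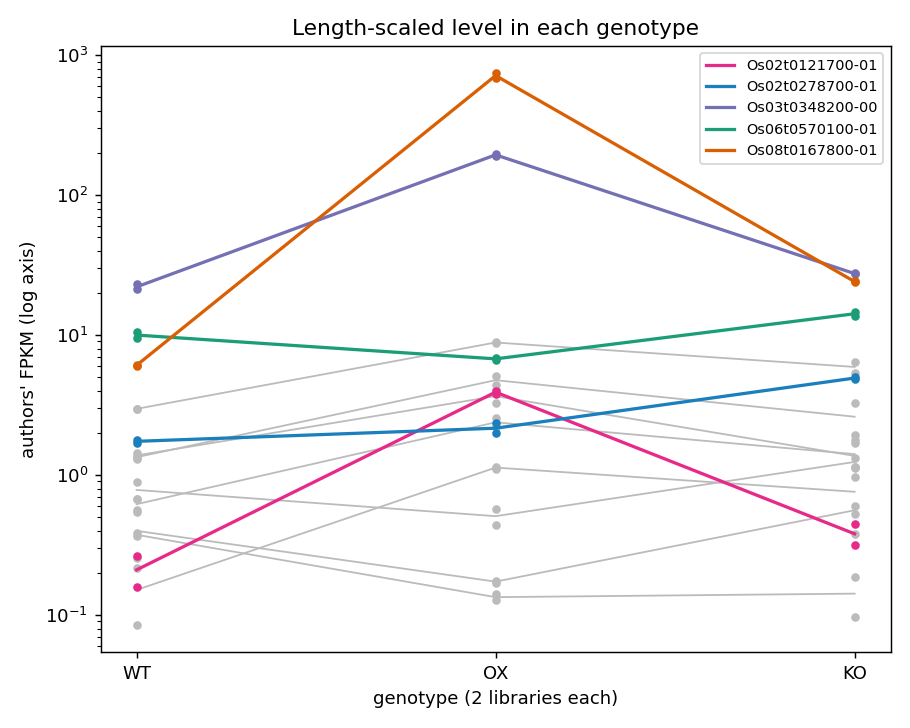
Length-scaled level (the authors' FPKM, log axis) of the 13 transcripts in WT, OX and KO; lines join the means and points are the 2 libraries of each genotype. Os08t0167800-01 goes from 6.08 FPKM in WT to 715 in OX, while Os06t0570100-01 goes from 10.0 to 6.76. FPKM is scaled on plain library totals and CPM on effective totals, so differences between genotypes are not the same size in the 2 measures.

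Levels of different genes can be set side by side only per transcript length, for which the authors' FPKM were used within each genotype. In WT the order began with Os03g0348200 at 22.1 ± 1.15 FPKM (SD, n = 2), followed by the ent-kaurene oxidase Os06g0570100 at 10.0 ± 0.662 and Os08g0167800 at 6.08 ± 0.0949. These 3 values were further apart than the spread of their libraries. Lower in the WT order, Os02g0571800 at 1.38 ± 0.0708 and transcript 02 of Os03g0347900 at 1.34 ± 0.0306 did not differ beyond their spread. In OX the level of Os08g0167800, 715 ± 34.2 FPKM, was first and that of Os03g0348200, 194 ± 4.46, second, with the next member at 8.85 ± 0.193. In KO, Os03g0348200 at 27.5 ± 0.411 and Os08g0167800 at 24.1 ± 0.0805 led. The least abundant member was Os01g0248701 in WT at 0.151 ± 0.0936, and Os12g0491800 in OX and KO at 0.134 ± 0.0084 and 0.142 ± 0.0625.

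Among the diphosphate cyclases that open the diterpenoid routes, the enzyme of the gibberellin branch rose in KO. Os02g0278700 is described as similar to kaurene synthase A, the older name of ent-copalyl diphosphate synthase (chromosome 2, 10273719 to 10283727). It stood at 6.51 and 6.28 CPM in WT, 5.58 and 6.75 in OX leaves, and 15.5 and 16.1 in KO. WT and OX overlapped and both KO libraries lay above them. The transcript rose 2.47-fold in KO against WT (1.31, SE 0.15, adjusted p = 0.00477) and was lower in OX than in KO (-1.36, SE 0.15, adjusted p = 0.0041), with adjusted p of at most 0.0458 and 0.041 under the 13 alternatives. OX against WT gave -0.05 (SE 0.15, adjusted p = 1), a value that turned to 0.32 with plain library totals and to 0.08 without OX 1, neither of them called.

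The cyclase of the momilactone branch showed another pattern. Os04g0178300, similar to syn-copalyl diphosphate synthase (chromosome 4, 5318347 to 5326199, transcript 02), stood at 2.32 and 1.97 CPM in the WT libraries, 5.89 and 6.90 in OX, then 3.37 and 5.12 in KO. OX was highest, WT lowest, and KO lay between them without overlap. The transcript rose in OX against WT (1.57, SE 0.28, adjusted p = 0.0222), but the call was lost without WT 1 (0.0835), WT 2 (0.121), OX 1 (0.0793) or OX 2 (0.123). KO against WT gave 0.98 (SE 0.28, adjusted p = 0.129) and OX against KO 0.59 (SE 0.27, adjusted p = 0.453). Both missed the threshold, and KO against WT was called higher when adjusted over the deposited table only (0.033).

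Kaurene synthase-type enzymes, which act on the products of those cyclases, gave weaker evidence. Os12g0491800, similar to ent-kaurene synthase 1A (chromosome 12, 18509843 to 18528700), had counts of 35 and 31 in WT, 12 and 13 in the OX lines, and 15 and 9 in KO, or 1.36 and 1.30, 0.378 and 0.380, and 0.575 and 0.329 CPM. Both OX and KO were below WT and overlapped each other. It fell in OX against WT (-1.80, SE 0.39, adjusted p = 0.0427), and the value in KO against WT was -1.55 (SE 0.39, adjusted p = 0.0833). The OX call was lost without WT 1 (0.167), WT 2 (0.15), OX 1 (0.205) or OX 2 (0.206), with plain library totals (0.0919), with the replicate block (0.0763) and with the DESeq2 Wald test (0.0543), while the KO value was called lower with DESeq2 size factors (0.0332), with TMM (0.0301) and when adjusted over the deposited table only (0.0214).

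Os02g0571800, a terpene synthase-like gene that the authors' pathway table places in diterpenoid biosynthesis (chromosome 2, 21886504 to 21897686), had 4.38 and 4.15 CPM in WT leaves, 7.69 and 9.76 in OX, with 2.61 and 4.79 in KO. OX was above all other libraries, and WT and KO overlapped. No comparison was called, with 1.03 for OX against WT (SE 0.33, adjusted p = 0.148), -0.20 for KO against WT (SE 0.33, adjusted p = 1) and 1.24 for OX against KO (SE 0.33, adjusted p = 0.0958). The last was called higher with DESeq2 size factors (0.0474), with TMM (0.0429), with the DESeq2 Wald test (0.0224), without KO 2 (0.0466) and when adjusted over the deposited table only (0.0246). That adjustment also called OX against WT higher (0.0381).

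The ent-kaurene oxidases, cytochrome P450 enzymes that oxidise ent-kaurene on the way to gibberellins, were lower in OX than in KO. Os06g0570100 (chromosome 6, 22073976 to 22082485) stood at 23.0 and 21.2 CPM in WT, 11.6 and 11.5 in OX leaves, and 26.3 and 28.3 in KO. OX was lowest and KO highest without overlap. The transcript fell in OX against WT (-0.94, SE 0.10, adjusted p = 0.00317), to a level 1.91-fold below WT, and was 2.36-fold below KO (-1.24, SE 0.10, adjusted p = 0.0013). Its value in KO against WT was 0.31 (SE 0.10, adjusted p = 0.181), which was called higher with plain library totals (0.0386) and when adjusted over the deposited table only (0.0465), and turned to -0.19 and -0.25, not called, with DESeq2 size factors and TMM.

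Its neighbour Os06g0569900, similar to ent-kaurene oxidase 1 (22048648 to 22057757, 16.2 kb away), had the same order of genotypes at a much lower level. It stood at 1.94 and 1.47 CPM in the WT libraries, 0.756 and 0.994 in OX, then 2.53 and 2.19 in KO. Log2 fold changes were -0.96 in OX against WT (SE 0.30, adjusted p = 0.153, and 0.0392 when adjusted over the deposited table only) and 0.47 in KO against WT (SE 0.29, adjusted p = 0.876). It was lower in OX than in KO (-1.43, SE 0.30, adjusted p = 0.0455), a call lost without WT 1 (0.0645), WT 2 (0.0624), OX 1 (0.248), OX 2 (0.135), KO 1 (0.2) or KO 2 (0.133), and with all 3 other scalings (0.0728 to 0.136). Adjacent members of a gene family, such as this pair and the pair on chromosome 3, may share reads in the authors' counting.

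The last member, Os01g0248701 (chromosome 1, 8191032 to 8192289), has a terpenoid synthase domain and is placed by the authors' pathway table in terpenoid backbone biosynthesis. Its counts were 9 and 4 in WT, 43 and 49 in the OX lines, and 14 and 43 in KO. The KO libraries differed from each other, library 1 being near WT and library 2 near OX. The log2 fold change was 2.40 in OX against WT (SE 0.66, adjusted p = 0.096; 0.0458 without KO 1, 0.0492 without KO 2 and 0.0247 when adjusted over the deposited table only) and 2.01 in KO against WT (SE 0.67, adjusted p = 0.203), and OX against KO gave 0.40 (SE 0.57, adjusted p = 1).

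**Figure D3:**
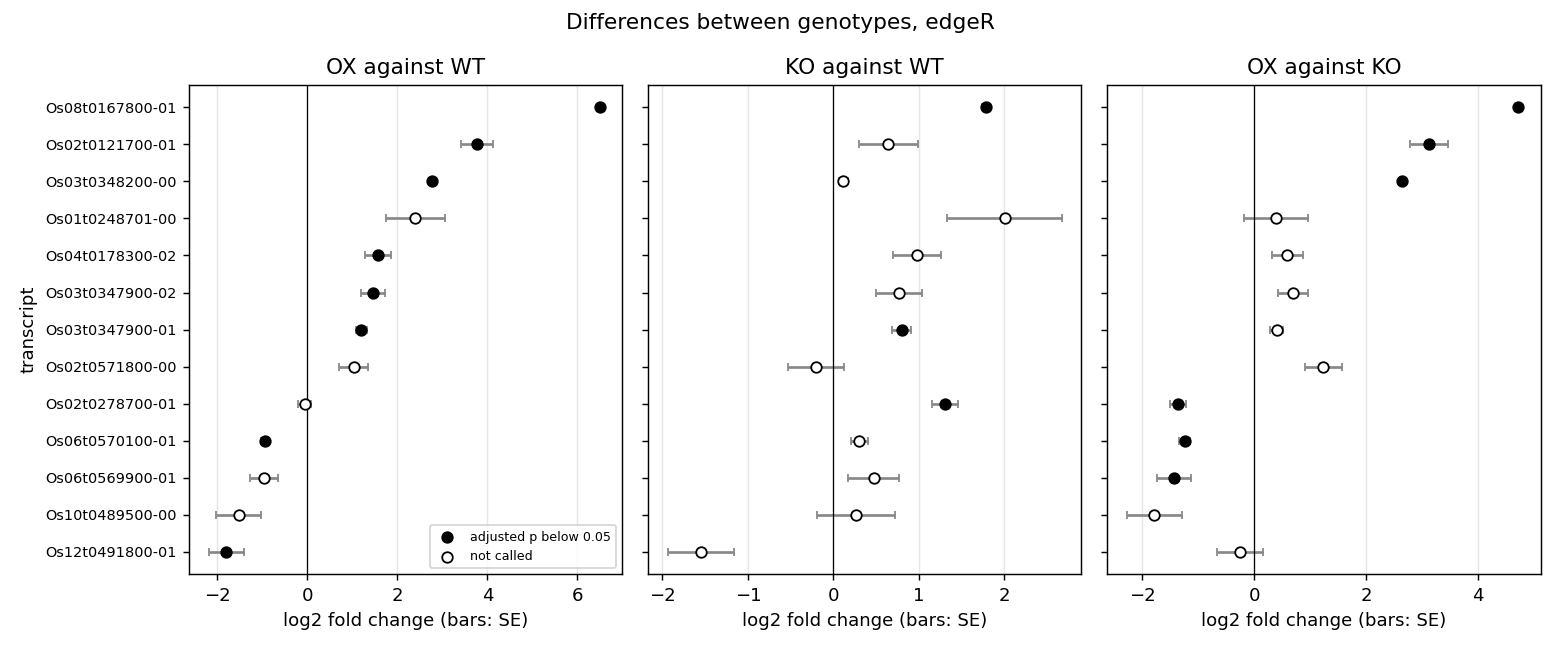
Log2 fold change of each member in the 3 comparisons, with bars for the SE; filled points have an adjusted p below 0.05 in edgeR. The x axes differ between panels. Os08t0167800-01 lies at 6.50 in OX and 1.79 in KO, both relative to WT, and Os02t0278700-01 at -0.05 and 1.31.

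Counted over the members, OX against WT had 6 higher, 2 lower and 5 not called, where 25.0% of the 7034 tested transcripts of the table were called higher and 19.0% lower. Leaving out any 1 WT or OX library gave 4 higher and 1 lower, and plain library totals gave 6 and 1. In KO against WT there were 3 higher, 0 lower and 10 not called, against 25.0% higher and 11.0% lower in the table. Of the 8 members with an unadjusted p below 0.05 in that comparison 1 was lower, and edgeR's 0 lower calls compare with 0 by the DESeq2 Wald test. With DESeq2 size factors or TMM 2 were higher and 2 lower. OX against KO had 3 higher, 3 lower and 7 not called, against 13.3% and 25.0% in the table. That count became 5 higher and 2 lower with DESeq2 size factors, with TMM or without KO 2, and 4 and 2 with plain library totals. The share called in either direction was 61.5% of members against 44.1% of the table in OX, 23.1% against 36.0% in KO, and 46.2% against 38.3% between OX and KO. With 13 members these shares are descriptions.

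The members' median log2 fold change was 1.20 for OX relative to WT, 0.64 for KO relative to WT and 0.40 between OX and KO, beside 0.28, 0.43 and -0.41 over all tested transcripts. Libraries of the groups did not overlap for 12 members between OX and WT, 11 between KO and WT and 11 between OX and KO, beside 84.7%, 79.3% and 84.0% of the table. Every member had been listed because it met the authors' criterion at least in 1 comparison: 10 met it between OX and WT, 4 between KO and WT and 8 between KO and OX. The share of the whole table meeting it in each comparison was not counted, so these numbers only describe the members. Terpene synthases that met the criterion in no comparison are not analysed here.

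The transcripts most like Os08g0167800 were sought by their profile over the 6 libraries. Likeness was the Euclidean distance between log2(CPM + 1) values centred on each transcript's mean, a description over 3 genotypes with 2 libraries each. Nearest was the ADP-glucose pyrophosphorylase Os05g0580000, a starch synthesis enzyme, at a distance of 0.50. It was followed by the transferase family gene Os12g0458100 (0.97), the lipoxygenase Os12g0559200 (1.62), the conserved gene Os06g0230000 (1.81) and the di-copper centre gene Os01g0793300 (2.07). The lipoxygenase, from a family that oxidises membrane fatty acids, had 68.9 and 93.3 CPM in WT leaves, 2240 and 2350 in OX, with 124 and 140 in KO.

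For Os02g0278700 the nearest profiles were those of a putative exonuclease-domain gene, Os02g0481900 (0.09), Os04g0512500 (0.10), the sodium/sulphate symporter Os09g0484900 (0.18), Os06g0295900 (0.18) and Os01g0885200 (0.19). The symporter stood at 78.3 and 76.8 CPM in WT, 73.6 and 85.6 in OX leaves, and 202 and 197 in KO. Like the cyclase, it was high in KO only among the 3 genotypes, which follows from its selection by profile.

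Listed neighbours within 100 kb of members moved in either direction. Near Os08g0167800 the only listed transcript was that of the ABC transporter-like gene Os08g0167000, 27.7 kb away, which fell in OX against WT (-1.74, adjusted p = 0.00148). The ascorbate oxidase-like gene Os06g0567900, 93.5 kb from the ent-kaurene oxidase-like Os06g0569900, rose in OX (2.85, adjusted p = 0.000401). Os06g0569900 itself gave -0.96 in OX against WT and was not called (adjusted p = 0.153). Beside Os02g0571800, the riboflavin synthesis gene Os02g0572400 rose in both OX (0.93, adjusted p = 0.000813) and KO (2.60, adjusted p = 6.4e-05).

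Other steps of isoprenoid metabolism were counted from description lists and from the authors' pathway assignments, 67 transcripts in all, of which 66 were tested. In OX against WT 13 were higher and 22 lower, with a median of -0.18, where 25.0% and 19.0% of all tested transcripts were called. For KO the counts were 13 higher and 13 lower (median -0.21), against 25.0% and 11.0% of all tested. Between OX and KO they were 10 higher and 21 lower (median -0.33), against 13.3% and 25.0%. The split moved with the scaling: with plain library totals it was 19 and 16 in OX, with DESeq2 size factors 8 and 26 in KO and 13 and 15 between OX and KO, and with TMM 8 and 28 in KO and 13 and 14 between OX and KO. Leaving out OX 1 or OX 2 reduced the OX counts to 5 higher and 12 or 14 lower, and leaving out WT 2 gave 14 lower. In KO the lower count was 8 without WT 2, 7 without KO 1 and 6 without KO 2, and the higher count was 8 without KO 2. Between OX and KO the higher count was 4 without OX 1, OX 2, KO 1 or KO 2.

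**Figure D4:**
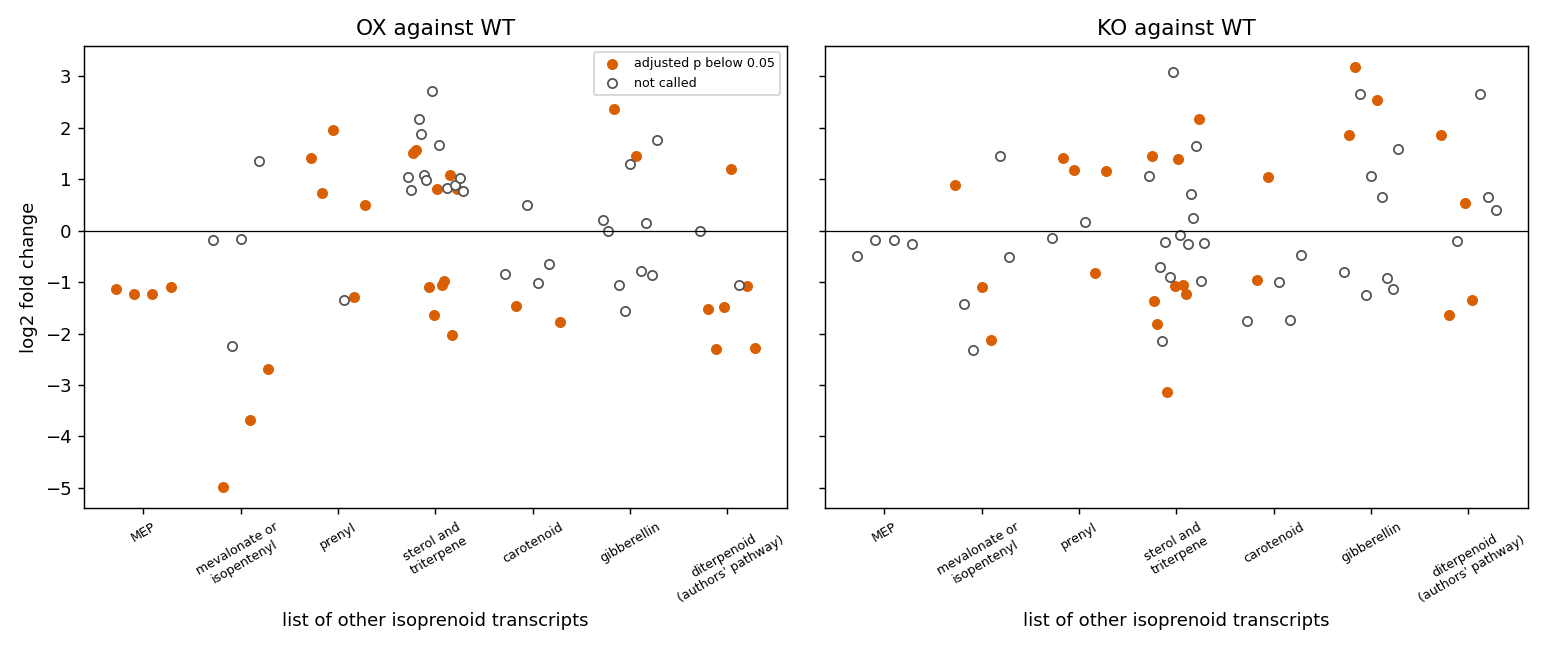
Log2 fold change of the other isoprenoid transcripts for OX and for KO relative to WT, by list. Filled points have an adjusted p below 0.05 in edgeR, and a transcript can belong to more than 1 list. The 4 transcripts of the MEP list lie between -1.23 and -1.10 in OX.

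The plastid route to prenyl diphosphates, the methylerythritol phosphate (MEP) pathway, was represented by 1 gene. The 4 listed transcripts of that gene overlap in position, so their calls are not 4 separate results. Of all tested transcripts, 19.0% were called lower in OX and 11.0% in KO, both relative to WT. The share called lower in OX than in KO was 25.0%. All 4 transcripts of Os05g0408900, similar to 1-deoxy-D-xylulose 5-phosphate synthase, the entry enzyme, fell in OX against WT (3 without WT 2, OX 1 or OX 2). The most abundant, transcript 04, stood at 323 and 336 CPM in the WT libraries, 136 and 170 in OX, then 272 and 275 in KO (-1.10, SE 0.11, adjusted p = 0.00283). None was called in KO against WT (-0.50 to -0.18, with 1 called lower without OX 1 or OX 2 and all 4 with DESeq2 size factors or TMM). Between OX and KO 3 of the 4 were lower in OX (2 without KO 1 or KO 2).

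Diterpenoid pathway transcripts that the rule did not take were mostly P450 enzymes and gibberellin oxidases placed there by the authors. In OX against WT 1 was higher and 5 lower of 8 tested, beside 25.0% and 19.0% of all tested transcripts. This count was 0 and 5 without WT 1, 0 and 2 without WT 2, 0 and 1 without OX 1, 0 and 2 without OX 2, and 0 and 4 without KO 1 or KO 2. The CYP714B3-like Os03g0332100, from a P450 family known in rice for modifying gibberellins, stood at 40.4 and 38.5 CPM in WT, 13.8 and 14.4 in the OX lines, and 57.3 and 57.4 in KO. It fell in OX (-1.49, SE 0.07, adjusted p = 0.000236) and rose in KO (0.54, SE 0.07, adjusted p = 0.00816). Os06g0110000, similar to DWARF3, a maize ent-kaurenoic acid oxidase, fell in OX (-1.07, SE 0.15, adjusted p = 0.00873) and had a value of 0.66 in KO (adjusted p = 0.0544). In CPM both transcripts had the order KO, WT, OX, as Os06g0570100 did. The transcript called higher in OX, that of the CYP92C5-like Os03g0650200, had the opposite order. Its log2 fold change was 1.20 for OX against WT (SE 0.22, adjusted p = 0.0244) and -1.34 for KO against WT (SE 0.23, adjusted p = 0.0228). OX against KO gave 2.54 (adjusted p = 0.00219). Its OX call against WT was lost with any 1 library left out, as the counts above show. The KO rise of Os03g0332100 is about the size of the shift that DESeq2 size factors and TMM give all tested transcripts in KO against WT (-0.49 and -0.56), and Os06g0570100 turned below WT with those scalings.

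In KO against WT the same pathway list gave 2 higher and 2 lower (3 and 2 with plain library totals, 1 and 2 with DESeq2 size factors or TMM; lower 1 without WT 1, OX 1 or OX 2 and 0 without WT 2, KO 1 or KO 2, higher 1 without KO 2). Over all tested transcripts 25.0% were called higher and 11.0% lower in KO. The GA 2-oxidase 4-like Os01g0757200, from the family that inactivates gibberellins, stood at 5.62 and 6.62 CPM in WT leaves, 6.11 and 6.02 in OX, with 21.6 and 22.9 in KO. It rose in KO (1.86, SE 0.14, adjusted p = 0.000951) and gave -0.01 in OX (adjusted p = 1), as Os02g0278700 was high only in KO. The GA C20oxidase2-like Os01g0883800, which acts late in gibberellin synthesis, fell in both OX (-1.53, SE 0.22, adjusted p = 0.0103) and KO (-1.63, SE 0.22, adjusted p = 0.00955).

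In the remaining lists the members that moved in OX were often not enzymes of the named route. In KO against WT some route enzymes were called, picked here after their values were seen. Isopentenyl diphosphate isomerase Os05g0413400 fell (-1.10, adjusted p = 0.0396). The cycloartenol synthase-like Os02g0140200 (1.45, adjusted p = 0.00652) and beta-carotene hydroxylase Os03g0125100 (1.04, adjusted p = 0.0454) rose, the last call being lost with DESeq2 size factors and TMM. The OX counts in this paragraph and the next stand beside 25.0% higher and 19.0% lower over all tested transcripts. Of the mevalonate or isopentenyl list, 3 of 7 fell and 0 rose in OX (2 fell without WT 1, WT 2, OX 1 or OX 2), and they were the tRNA isopentenyltransferases Os03g0810100 and Os05g0551700 and the hydroxymethylglutaryl-CoA lyase Os12g0134000, which breaks the compound down. The prenyl list gave 4 higher and 1 lower of 6 in OX (2 higher without WT 1 or WT 2, 1 higher without OX 1 or OX 2), among them the protein farnesyltransferase subunit Os01g0737800 (1.95, adjusted p = 0.00468) and, lower, the geranylgeranyl reductase Os02g0744900 of chlorophyll synthesis (-1.29, adjusted p = 0.000132). It held no enzyme that makes geranylgeranyl or farnesyl diphosphate.

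Sterol and triterpene transcripts came to 5 higher and 5 lower of 22 in OX (10 and 2 with plain library totals, 3 and 5 with TMM, 2 lower without WT 1 or WT 2, 2 and 2 without OX 1 or OX 2, 3 lower without KO 1 or KO 2), led by the lecithin:cholesterol acyltransferase Os02g0589000 (1.52, adjusted p = 0.000391) and, lower, its family member Os03g0730000 (-1.05, adjusted p = 0.00224), neither of them an enzyme of sterol synthesis. Squalene synthase Os07g0200700, which draws farnesyl diphosphate towards sterols and was picked after its values were seen, rose in OX (1.09, adjusted p = 0.0203). That call was lost with TMM and with the replicate block. Picked in the same way, the sterol C4-methyl-oxidase-like Os03g0108500 fell in OX (-1.10, adjusted p = 0.0491). So did the cycloartenol synthase-like transcript 01 of Os06g0483200 (-0.98, adjusted p = 0.0157), whose transcript 02, similar to beta-amyrin synthase, gave 0.82 (adjusted p = 0.0896). Carotenoid transcripts gave 0 higher and 2 lower of 6 in OX (3 lower without WT 1, 1 without OX 1), led by the carotenoid oxygenase Os02g0704000 (-1.47, adjusted p = 0.000278). Of 11 tested gibberellin transcripts 2 were higher and 0 lower in OX (1 higher without WT 1, OX 1 or OX 2 and with DESeq2 size factors, TMM or the replicate block, 1 higher and 1 lower without KO 1 or KO 2). Both higher ones respond to gibberellin rather than make it. They were the chitin-inducible gibberellin-responsive Os07g0545800 (1.45, adjusted p = 9.03e-05) and the gibberellin-induced transcription activator Os02g0776900 (2.37, adjusted p = 0.0447). Both also rose in KO (2.54, adjusted p = 4.38e-05, and 3.19, adjusted p = 0.0174).

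The authors' smaller pathway assignments gave few calls. Beside them, 25.0% of all tested transcripts were higher and 19.0% lower in OX, and 25.0% higher and 11.0% lower in KO. Of 2 monoterpenoid transcripts, the short-chain dehydrogenase Os04g0531900 rose in OX (1.12, adjusted p = 0.00132) and in KO (0.54, adjusted p = 0.0228), the KO call being lost without any 1 library and with DESeq2 size factors or TMM, where the list had 0 higher and 1 lower, and Os04g0531750 fell in OX (-1.16, adjusted p = 0.000291). Of 4 terpenoid backbone transcripts 2 fell in OX, the geranylgeranyl reductase and the cis-prenyltransferase-type Os06g0167400 (-1.09, adjusted p = 0.000477). Both fell in KO too (-0.83, adjusted p = 0.000449, and -0.86, adjusted p = 0.00117), and the diphosphomevalonate decarboxylase Os02g0109100, an enzyme of the mevalonate pathway, rose in KO (0.89, adjusted p = 0.00332; not called with DESeq2 size factors or TMM). Of 2 sesquiterpenoid and triterpenoid transcripts, squalene synthase was the 1 called in OX, a call lost without WT 1, WT 2, OX 1 or OX 2, and 0 were called in KO by edgeR or the DESeq2 Wald test.

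Markers of leaf and of other cells moved with the genotypes as well. For comparison, 25.0% of all tested transcripts were called higher and 19.0% lower in OX, and 25.0% higher and 11.0% lower in KO. The 37 leaf markers, chlorophyll-binding, photosystem and Rubisco transcripts, summed to 99135 to 107442 CPM in WT, 39597 to 44412 in OX, and 64995 to 65337 in KO. Of these, 31 fell and 0 rose in OX against WT, and 27 fell and 0 rose in KO (19 without KO 1 or KO 2). The 80 dividing-cell markers were transcripts whose description names a histone or holds the word cyclin, which also takes in a cyclin-dependent kinase. They summed to 1713 to 1837 CPM in WT, 1060 to 1081 in OX and 920 to 921 in KO. In OX 9 were higher and 15 lower, and in KO 18 were higher and 13 lower. Their split turned with the scaling, to 15 and 10 in OX with plain library totals, and in KO to 11 and 16 with DESeq2 size factors and 8 and 17 with TMM. Leaving out OX 1 gave 3 and 9 in OX, OX 2 gave 4 and 11, and leaving out KO 1 or KO 2 gave 10 and 9 or 11 and 10 in KO. The 6 pollen or anther markers summed to 13.7 to 16.4 CPM in WT, 45.3 to 49.8 in OX and 68.8 in both KO libraries, mostly from the ER1-like Os03g0388500. In OX 3 of the 6 rose (1 without WT 1, WT 2, OX 1 or OX 2) and in KO 2 rose (1 without WT 2, KO 1 or KO 2, and with DESeq2 size factors or TMM); the deposited counts have a minimum of 1, so none is listed at 0. No root marker matched a description. In bulk leaves fewer cells of a type and less RNA per cell cannot be told apart, and the part of these shifts in the terpenoid differences was not tested.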

How the data were processed

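Members and lists were chosen with earlier results of these data known. Coordinates use IRGSP-1.0, named by the submitters' processing notes. No source used here names the aligner, counter or strand setting. The authors deposited estimated counts per transcript (whole numbers of at least 1), which for 99.7% or more of values in each library equal the deposited FPKM turned back to reads and rounded up, within 0.02 below and 1.02 above. FPKM and TPM were scaled by the authors, per the file headers; TPM was not tested. The deposited log2 normalised values gave the authors' effective library totals, and the ratio of the deposited adjusted to unadjusted p-values gave the number of transcripts the authors tested. The deposited fold changes, a signed linear ratio, were used only to check the selection criterion.

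Counts were tested with edgeR 4.0.16 (R 4.3.3), a robust quasi-likelihood fit across the 6 libraries with genotype as its single factor, effective totals as library sizes and filterByExpr, which kept 7034 of 7194 transcripts. The procedure was tested on simulated data. Alternatives were 3 other scalings, no filter, DESeq2 1.42.0, a replicate block, adjustment over the table only, and each library left out; where a genotype then had 1 library, it was assumed to vary like the others. Named genes were all members, the called list members with the smallest adjusted p (up to 3 per direction and comparison), and the 5 nearest profiles. Neighbouring genes were picked after their values were seen.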

Additional observations from a re-analysis of the deposited data

How the results depend on the processing

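Of 507 recomputed log2 fold changes of members, 436 kept their direction and side of the threshold, 30 lost a call, 25 gained one and 16 turned. The calls of Os08g0167800, Os03g0348200 and Os02g0121700 in OX against WT and OX against KO, of Os06g0570100 in the same comparisons, of Os08g0167800 in KO against WT, of transcript 01 of Os03g0347900 in OX against WT, and of Os02g0278700 in KO against WT and OX against KO held under all 13 alternatives. The median of all tested transcripts shifted by -0.17, -0.49 and 0.32 (OX against WT, KO against WT, OX against KO) with DESeq2 size factors, by -0.19, -0.56 and 0.37 with TMM, and by 0.37, 0.20 and 0.17 with plain library totals; the first 2 are computed on transcripts selected for change.

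Values that turned in KO against WT, with DESeq2 size factors and TMM, were those of Os03g0348200 (-0.37 and -0.44), Os06g0569900 (-0.022 and -0.09), Os06g0570100 (-0.19 and -0.25) and Os10g0489500 (-0.22 and -0.28; -0.192 to 0.915 with 1 library left out). Os02g0571800 ranged from -0.708 to 0.168 with 1 library left out, turning without KO 1. In OX against KO, Os12g0491800 turned to 0.069 and 0.12 with the same settings and ranged from -0.596 to 0.201 with 1 library left out, and Os01g0248701 ranged from -0.173 to 1.369, both turning without KO 1. In OX against WT, Os02g0278700 turned to 0.32 with plain totals and ranged from -0.198 to 0.078 with 1 library left out, turning without OX 1. Apart from the scaling shifts, the cause was not tested.

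Members called lower in OX against WT were 1 with plain totals, the replicate block or the DESeq2 Wald test, 4 adjusted over the table only, and 1 to 2 with 1 library left out. In KO against WT, higher calls were 5 with plain totals or adjusted over the table only, and lower calls 2 with DESeq2 size factors or TMM and 1 adjusted over the table only. In OX against KO, higher calls were 5 with DESeq2 size factors, TMM or adjustment over the table only, and 3 to 5 with 1 library left out. Other isoprenoid transcripts with 1 library left out came to 5 to 12 higher and 12 to 20 lower in OX against WT, 8 to 10 higher and 6 to 12 lower in KO against WT, and 4 to 7 higher in OX against KO. In KO against WT they were 8 higher with DESeq2 size factors or TMM, and 26, 28 and 21 lower with DESeq2 size factors, TMM and adjustment over the table only; in OX against KO 6 were higher with the replicate block.

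Replicate numbers did not pair the libraries: deviations of libraries with the same number correlated at 0.077, 0.023 and 0.016. The replicate block ended the member calls of Os12g0491800 in OX against WT and Os06g0569900 in OX against KO. Few counts limit what can be detected for Os10g0489500, Os01g0248701 and Os12g0491800, and counts of at least 1 hide true zeros.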

Other observations

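The authors' ontology table assigns terpene synthase activity to 2 listed genes that the description rule did not take, both on chromosome 4. Os04g0345400 measured 0.542 and 0.587 CPM in the WT libraries, 6.80 and 6.90 CPM with OX, and 0.767 and 1.13 CPM with KO. Relative to WT it rose 12.1-fold in OX (3.59 as a log2 fold change, SE 0.30, adjusted p = 0.00123), while its KO value of 0.75 missed the threshold (SE 0.29, adjusted p = 0.321). OX was also above KO (2.84, SE 0.28, adjusted p = 0.00274). Os04g0344100 measured 2.87 and 3.35 CPM in the WT libraries, 0.536 and 0.965 CPM with OX, and 6.10 and 5.52 CPM with KO. Relative to WT it fell in OX (-2.04, SE 0.34, adjusted p = 0.0166), gave 0.90 in KO (SE 0.32, adjusted p = 0.232), and was lower in OX than in KO (-2.94, SE 0.34, adjusted p = 0.00524). These genes moved in opposite directions in OX.

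In the authors' deposited tables, the diterpenoid biosynthesis pathway is given 14 listed transcripts of 41 annotated, with the authors' adjusted p of 3.7e-10. In their ontology table, diterpenoid biosynthetic process has 11 of 41, with the authors' adjusted p of 0.838. Terpene synthase activity there has 11 of 40, with the authors' adjusted p of 0.744. Beside these counts, 7194 of the 27384 transcripts the authors tested are listed. Their pathway table also gives terpenoid backbone biosynthesis, with 5 of 49, an adjusted p of 0.0359. The background behind the authors' adjusted p-values was not checked. The authors' tables therefore differ in the adjusted p they give diterpenoid transcripts, and over-representation was not tested here.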
